A study of Mus musculus with 9 samples.

Results

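The set described here holds 43 synaptic genes: the receptors for the transmitter glutamate, their auxiliary subunits and the scaffold and adhesion proteins of the postsynaptic density. Members were picked by gene name. No measured value entered that rule, but the list was chosen with earlier results of these data known. All 43 were found, each once, among the 33175 genes with a count in at least 1 of 9 libraries, from 55471 genes listed. All 43 also passed the filter on low counts that left 17396 genes for testing.

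The libraries were made from hippocampus RNA of female mice aged 9 months, in 3 groups of 3. In the LP-10d-treated 3xTg group, the compound LP-10d was given by mouth at 10 mg/kg, 4 times a week for 1 month. 3xTg vehicle mice and WT vehicle mice received solvent alone by mouth 4 times a week. The WT vehicle mice were C57BL/6J. Both 3xTg groups carry mutant human APP, tau and presenilin 1, labelled APPSwe/tauP301L/PS1M146V in 3xTg vehicle replicate 1. In the labels of the other 3xTg libraries the last number goes up by 1 with each sample, to PS1M151V, and the labels do not explain this. In this line the APP and tau transgenes are driven by the neuronal Thy1 promoter, and its strain background may differ from C57BL/6J. Strain and transgenes cannot be told apart in a comparison with WT vehicle. Whether each replicate is its own animal is not stated in the labels, and all p-values here therefore reflect the spread between libraries alone, which may be technical.

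AMPA receptors, built from the Gria subunits, carry the fast current at these synapses. NMDA receptors, built from Grin subunits, admit calcium and start the changes in synaptic strength that underlie hippocampal learning. Kainate receptors (Grik) tune transmission, for example at mossy fibre synapses onto CA3 neurons, and the metabotropic receptors (Grm) act through G proteins. Dlg, Dlgap, Shank and Homer proteins form the layered scaffold that holds these receptors under the membrane, and neuroligins (Nlgn) link that scaffold to the presynaptic side.

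Promoter sequence is shown for the pair of members with the smallest adjusted p on the higher side (Grik3) and on the lower side (Cnih2) in 3xTg vehicle against WT vehicle, among the 30 members with an entry in RefSeq's promoter table (GRCm38.p6). Each run is the 250 bases before the transcript start, 5′ to 3′ on the gene's own strand. Grik3 is at chr4:125490446-125490695 on the plus strand and Cnih2 at chr19:5098522-5098771 on the minus strand. Capitals mark GGGCGG, the core of the GC box that Sp1-type factors bind, or its reverse complement CCGCCC.
Grik3: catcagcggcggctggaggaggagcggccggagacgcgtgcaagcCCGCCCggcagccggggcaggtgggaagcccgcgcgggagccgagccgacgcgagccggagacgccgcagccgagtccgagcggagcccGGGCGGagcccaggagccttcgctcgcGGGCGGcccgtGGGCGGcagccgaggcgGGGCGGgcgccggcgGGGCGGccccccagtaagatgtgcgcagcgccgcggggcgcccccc
Cnih2: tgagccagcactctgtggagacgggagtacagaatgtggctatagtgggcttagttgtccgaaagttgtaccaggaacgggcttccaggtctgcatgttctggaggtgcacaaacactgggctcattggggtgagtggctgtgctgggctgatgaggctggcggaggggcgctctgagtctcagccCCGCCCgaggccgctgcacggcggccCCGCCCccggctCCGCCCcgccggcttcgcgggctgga
The motif occurred 6 times in the Grik3 window and 3 times in the Cnih2 window. On either strand it was present in 19 of 45 windows of members (42.2%), against 32.7% of all 32851 windows in the table, and members' windows had a median GC content of 58.8%, against 52.4%. The E-box CACGTG was in 4 of 45 windows (8.89%), those of Dlg1, Dlgap1 and Grin1, against 6.02% of all windows. The cAMP response element TGACGTCA was in 0 of 45, against 1.55%. These are letter matches within the windows and bear on no binding.

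Total counts ran from 16582086 to 19170969 per library, and the 43 genes took 0.998% to 1.22% of them. Some libraries stood apart in markers of neighbouring tissue. The summed level of 6 striatal genes was 898 CPM (library-scaled counts after TMM) in 3xTg vehicle replicate 2, against 83.3 to 91.7 CPM in LP-10d-treated 3xTg, 86.6 and 100.5 CPM in the other two 3xTg vehicle libraries and 91.3 to 160 CPM in WT vehicle. All 6 were highest in that library. The sum of 5 thalamic genes was 255 CPM in 3xTg vehicle replicate 2 and 301 CPM in WT vehicle replicate 3, the library where mitochondrial genes took 5.04% of counts. It lay between 67.2 and 116 CPM in the other libraries. The sum of 4 cerebellar genes was 30.8 CPM in WT vehicle replicate 2 and at most 5.05 CPM elsewhere. None of the marker genes was at 0 in all libraries, and Gabra6 was the 1 at 0 in some. The 6 dentate gyrus genes summed to between 273 and 347 CPM in LP-10d-treated 3xTg, between 199 and 362 CPM in 3xTg vehicle, and between 372 and 525 CPM in WT vehicle. The sum of 6 neocortex genes lay between 217 and 291 CPM in LP-10d-treated 3xTg, between 250 and 359 CPM in 3xTg vehicle, and between 171 and 239 CPM in WT vehicle. For 5 oligodendrocyte genes it lay between 5524 and 7371 CPM in LP-10d-treated 3xTg, between 4722 and 5979 CPM in 3xTg vehicle, and between 6637 and 7116 CPM in WT vehicle. Choroid plexus genes, 6 in number, spread most, between 41.8 and 4359 CPM over the 9 libraries. Leaving libraries out was the only check on the part of these differences in the results below. It cannot test a difference that all libraries of a group share. The dentate gyrus, neocortex and oligodendrocyte sums did not overlap between 3xTg vehicle and WT vehicle, and their part was not tested.

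Per length, Cnih2 and Gria1 led the set. The authors' FPKM (fragment counts scaled by gene length and library total) averaged 281 for Cnih2, the cornichon that escorts AMPA receptors to the surface, and 170 for Gria1, over 9 libraries. Dlgap3 at 112 FPKM and Shank1 at 107 FPKM followed, and their ranges overlapped. The next 3 were Grik5 (83.8 FPKM), Dlg4 (75.9 FPKM) and Nlgn2 (73.1 FPKM), with overlapping ranges that lay under that of Shank1. Shank3, the obligatory NMDA subunit Grin1, Dlgap4 and Dlg3 came next, between 42.5 and 48.2 FPKM. Gria2, whose edited subunit makes AMPA receptors impermeable to calcium, averaged 29.2 FPKM and began a long run of overlapping ranges that ended with Grik1 at 1.74 FPKM. Grm8, a presynaptic group III receptor, was lowest at 0.79 FPKM, with a range of 0.47 to 1.13 FPKM that lay under that of Grik1.

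**Figure D1:**
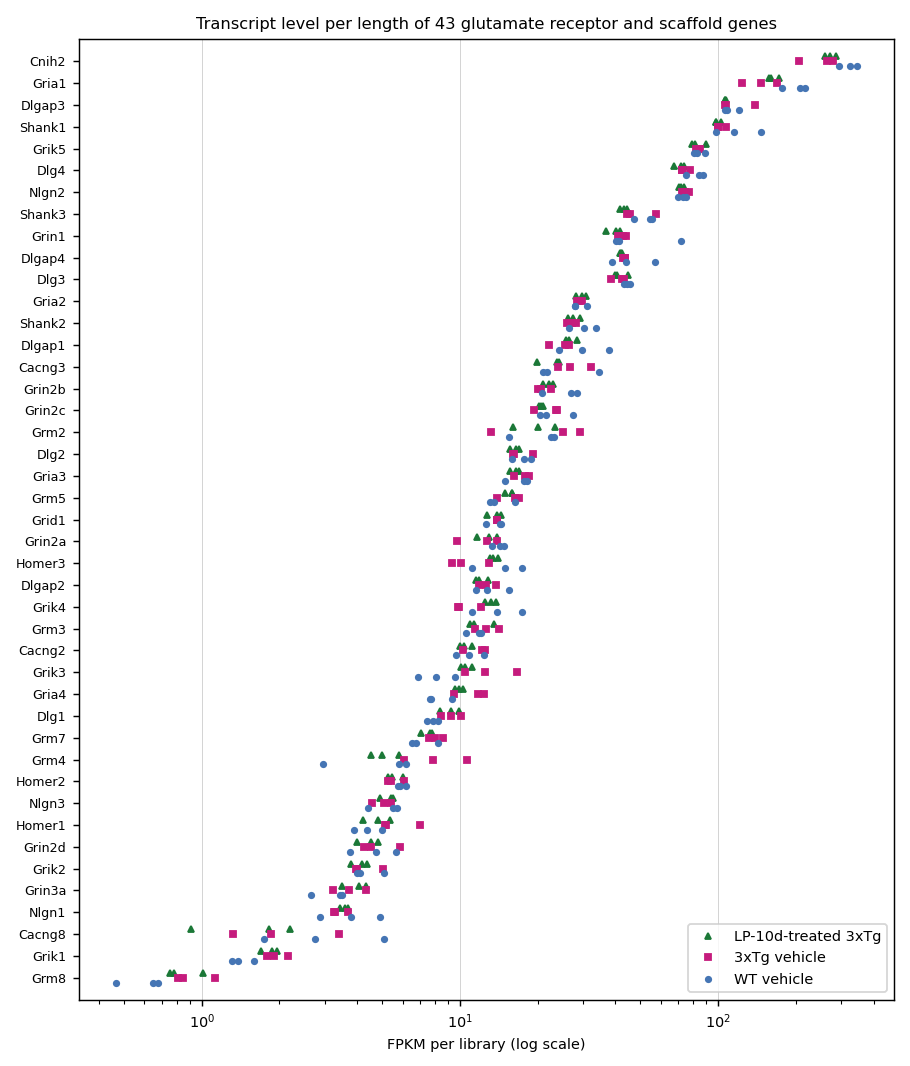
Level of each of the 43 genes in each library as the authors' FPKM on a log axis, sorted by the mean over 9 libraries, with 3 points per group. Cnih2 and Gria1 lead, at 281 and 170 FPKM on average, and Grm8 is lowest at 0.79 FPKM.

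Within families, 1 member often held most of the FPKM. Gria1 made up 67.6% to 79.4% of the summed AMPA subunit FPKM. Grik5, a high-affinity kainate subunit that needs a partner to form a channel, made up 71.9% to 75.9% of kainate FPKM in every library. Nlgn2, the neuroligin of inhibitory synapses, held 88.7% to 90.2% of neuroligin FPKM. Dlg4, which encodes PSD-95, held 50.8% to 55.0% of Dlg FPKM. Among the GluN2 subunits, Grin2b held 31.3% to 41.1%, Grin2c 30.6% to 41.5%, Grin2a 16.4% to 23.3% and Grin2d 5.73% to 9.85%. Such shares depend on the gene length that FPKM divides by, here 24842 bases for Grin2b and 5037 bases for Grin2c. Without that division Grin2b averaged 570 CPM and Grin2c 111 CPM over the 9 libraries. Grin2d overlaps Kdelr1, which had 47.2 to 54.6 CPM in the 9 libraries, so reads of the pair may be shared. Grin2c, a subunit of cerebellar granule cells and astrocytes, was highest in WT vehicle replicate 2 at 135 CPM, the library with the cerebellar markers, against 97.2 to 118 CPM in the other eight.

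The first comparison asked how the receptors and scaffolds of 3xTg vehicle hippocampus differed from those of WT vehicle. No member passed edgeR's adjusted threshold of 0.05, with 0 of 43 called against 0.00575% of all genes tested, and the smallest adjusted p among members was 0.148. At an unadjusted p under 0.05 edgeR counted 6 members higher and 5 lower, against 7% and 7.08% of all genes. DESeq2 called 2 members, against 2.24% of the 15691 genes to which it gave an adjusted p. These were Grik3, which was higher, and Gria1, which was lower. The groups did not overlap in 6 members (14.0%), a smaller share than the 17.4% of all genes: Grik1, Grik3, Grm8 and Dlg1 were higher, and Gria1 and Cnih2 lower. In bulk tissue, fewer cells of a type and less RNA per cell cannot be told apart.

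Among AMPA subunits, Gria1 and Gria4 stood on opposite sides of no difference. Gria1 (ENSMUSG00000020524, mm10 chr11:57011387-57330244, plus strand) encodes GluA1, the subunit that is inserted at hippocampal synapses during potentiation. It had 956, 1024 and 950 CPM in LP-10d-treated 3xTg, 1021, 740 and 875 CPM in 3xTg vehicle, and 1349, 1037 and 1337 CPM in WT vehicle. All 3 WT vehicle libraries lay above all 6 others, with WT vehicle replicate 2 only just above. In 3xTg vehicle against WT vehicle the log2 fold change was -0.50 ± 0.14 (SE; edgeR quasi-likelihood adjusted p = 0.198; DESeq2 adjusted p = 0.0305). Without 3xTg vehicle replicate 2 it was -0.39. Gria4, the GluA4 subunit (ENSMUSG00000025892, mm10 chr9:4417896-4796234, minus strand) typical of interneurons and of early development, had 63.7, 59.1 and 62.8 CPM in LP-10d-treated 3xTg, 59.9, 77.5 and 73.5 CPM in 3xTg vehicle, and 49.5, 47.5 and 62.9 CPM in WT vehicle. WT vehicle replicate 3 lay above 3xTg vehicle replicate 1, so these groups overlapped, and the log2 fold change in 3xTg vehicle was 0.40 ± 0.13 (SE; edgeR adjusted p = 0.240). The sum of 6 GABAergic neuron genes lay between 647 and 852 CPM in 3xTg vehicle and between 594 and 648 CPM in WT vehicle, and its part in the Gria4 difference was not tested.

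The other two AMPA subunits lay close together across groups. Gria2 had 454, 430 and 481 CPM in LP-10d-treated 3xTg, 459, 437 and 447 CPM in 3xTg vehicle, and 498, 422 and 463 CPM in WT vehicle. Gria3, an AMPA subunit of the calcium-impermeable assemblies with Gria2, had 152, 160 and 167 CPM in LP-10d-treated 3xTg, 159, 180 and 175 CPM in 3xTg vehicle, and 179, 144 and 191 CPM in WT vehicle. For both, the groups overlapped. In 3xTg vehicle against WT vehicle the 95% intervals of the log2 fold change were -0.23 to 0.15 for Gria2 and -0.24 to 0.24 for Gria3.

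Scaled by gene length, these levels also give the share of each subunit in AMPA subunit FPKM. The size of a share depends on the length used, 6043 bases for Gria1 and 15548 bases for Gria2. Subunit protein was not measured. Gria1 held 74.3%, 76.1% and 73.1% of AMPA subunit FPKM in LP-10d-treated 3xTg, 75.4%, 67.6% and 71.4% in 3xTg vehicle, and 79.4%, 77.7% and 78.9% in WT vehicle. Every 3xTg library, treated or not, lay below every WT vehicle library. The difference from WT vehicle was -7.21 percentage points in 3xTg vehicle and -4.15 in LP-10d-treated 3xTg. Each gave a two-sided exact permutation p = 0.1 (3 against 3 libraries), which is the smallest this design allows, and an adjusted p = 0.3 over the 6 share and ratio tests made. LP-10d-treated 3xTg minus 3xTg vehicle was 3.06 points (exact permutation p = 0.3; adjusted p = 0.6). Gria4 held 4.21% to 4.74% in LP-10d-treated 3xTg, 4.24% to 6.78% in 3xTg vehicle and 2.79% to 3.56% in WT vehicle.

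**Figure D2:**
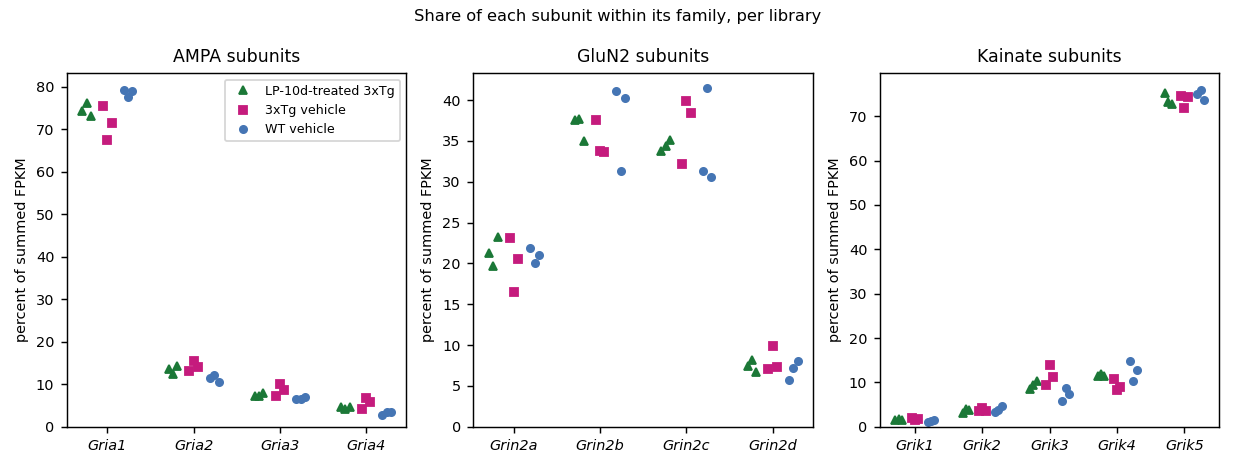
Percent of the summed FPKM of its family held by each AMPA, GluN2 and kainate subunit, with 1 point per library. The Gria1 share lies between 67.6% and 76.1% in the 6 3xTg libraries and between 77.7% and 79.4% in the 3 WT vehicle libraries.

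Cnih2 differed in the same direction as Gria1. This auxiliary subunit (ENSMUSG00000024873, mm10 chr19:5092868-5098521, minus strand), whose promoter is printed above, slows the closing of AMPA receptors that hold GluA1. It had 366, 349 and 391 CPM in LP-10d-treated 3xTg, 379, 279 and 357 CPM in 3xTg vehicle, and 488, 430 and 430 CPM in WT vehicle. All 6 3xTg libraries lay below the 3 WT vehicle libraries. The log2 fold change in 3xTg vehicle was -0.41 ± 0.12 (SE; edgeR adjusted p = 0.207; DESeq2 adjusted p = 0.0536) and -0.29 without 3xTg vehicle replicate 2. Cnih2 overlaps Yif1a, which had 9.68 to 16.5 CPM in the 9 libraries. The TARP subunits Cacng2 and Cacng3 had log2 fold changes of 0.04 and 0.05. Cacng8, the hippocampal TARP gamma-8, had low counts and spread widely, with 5.08, 4.21 and 2.14 CPM in LP-10d-treated 3xTg, 7.94, 3.06 and 4.30 CPM in 3xTg vehicle, and 4.23, 6.29 and 12.7 CPM in WT vehicle. Its log2 fold change in 3xTg vehicle was -0.59 ± 0.45 (SE) and -0.05 without WT vehicle replicate 3.

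The Grin1 difference depended on WT vehicle replicate 3. Grin1, which every NMDA receptor needs, had 398, 352 and 392 CPM in LP-10d-treated 3xTg, 414, 394 and 422 CPM in 3xTg vehicle, and 413, 380 and 740 CPM in WT vehicle. The value of WT vehicle replicate 3 was far above the other eight. The log2 fold change in 3xTg vehicle was -0.32 ± 0.21 (SE; edgeR adjusted p = 0.50), and 0.04 without that library. Grin1 overlaps the antisense gene Grin1os, and reads of the pair cannot be told apart where strand was not used. Grin1os was lowest in WT vehicle replicate 3, at 20.7 CPM, against 31.0 to 39.8 CPM elsewhere. Grin2a, the GluN2A subunit that takes over from GluN2B as synapses mature, had 229, 205 and 251 CPM in LP-10d-treated 3xTg, 249, 173 and 225 CPM in 3xTg vehicle, and 264, 231 and 283 CPM in WT vehicle. Grin2b had 559, 543 and 522 CPM in LP-10d-treated 3xTg, 559, 493 and 510 CPM in 3xTg vehicle, and 688, 502 and 750 CPM in WT vehicle. WT vehicle replicate 2 lay among the 3xTg libraries for both genes, so the groups overlapped. In 3xTg vehicle the log2 fold change was -0.26 ± 0.14 for Grin2a and -0.31 ± 0.13 for Grin2b (SE; edgeR adjusted p = 0.414 and 0.338). Grin2a was at -0.13 without 3xTg vehicle replicate 2, and Grin2b at -0.20 without WT vehicle replicate 3.

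The Grin2a to Grin2b balance, a usual index of synaptic maturity, overlapped between all groups. The FPKM ratio was 0.57, 0.52 and 0.67 in LP-10d-treated 3xTg, 0.62, 0.49 and 0.61 in 3xTg vehicle, and 0.53, 0.64 and 0.52 in WT vehicle. Mean ratios differed by 0.00792 between 3xTg vehicle and WT vehicle, by 0.0135 between LP-10d-treated 3xTg and 3xTg vehicle, and by 0.0215 between LP-10d-treated 3xTg and WT vehicle (two-sided exact permutation p = 1, 0.9 and 0.6). The glycine-binding subunit Grin3a had a log2 fold change of 0.19 in 3xTg vehicle, Grin2c -0.10 and Grin2d 0.00.

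Kainate subunits diverged. Grik3, the low-affinity GluK3 subunit (ENSMUSG00000001985, mm10 chr4:125490700-125714173, plus strand), had 89.3, 92.4 and 101 CPM in LP-10d-treated 3xTg, 94.0, 147 and 111 CPM in 3xTg vehicle, and 63.5, 83.2 and 77.5 CPM in WT vehicle. The 3 WT vehicle values were the 3 lowest. Its log2 fold change in 3xTg vehicle was 0.65 ± 0.16 (SE), a 1.57-fold level (edgeR adjusted p = 0.148; DESeq2 adjusted p = 0.0108). Without 3xTg vehicle replicate 2, the library with the striatal markers, it was 0.46, and over all alternatives the adjusted p ran from 0.0108 to 0.415. Grik1, the GluK1 subunit found in interneurons, had 12.9, 12.3 and 11.4 CPM in LP-10d-treated 3xTg, 14.5, 11.9 and 12.7 CPM in 3xTg vehicle, and 9.54, 8.54 and 11.5 CPM in WT vehicle. Its log2 fold change in 3xTg vehicle was 0.41 ± 0.14 (SE; edgeR adjusted p = 0.261), and 0.47 without 3xTg vehicle replicate 2. Grik4, the high-affinity GluK4 subunit concentrated in CA3, had 81.0, 77.0 and 74.6 CPM in LP-10d-treated 3xTg, 71.8, 58.0 and 58.5 CPM in 3xTg vehicle, and 107, 64.8 and 88.4 CPM in WT vehicle. WT vehicle replicate 2 lay below 3xTg vehicle replicate 1, so the groups overlapped. Grik4 had a log2 fold change in 3xTg vehicle of -0.47 ± 0.16 (SE; edgeR adjusted p = 0.273), and it ran between -0.64 with WT vehicle replicate 2 left out and -0.29 with replicate 1 left out. The 5 CA3 and CA2 marker genes summed to between 173 and 208 CPM in 3xTg vehicle and between 188 and 285 CPM in WT vehicle, and their part in the Grik4 difference was not tested. Grik2 and Grik5 had log2 fold changes of -0.07 and -0.05.

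**Figure D3:**
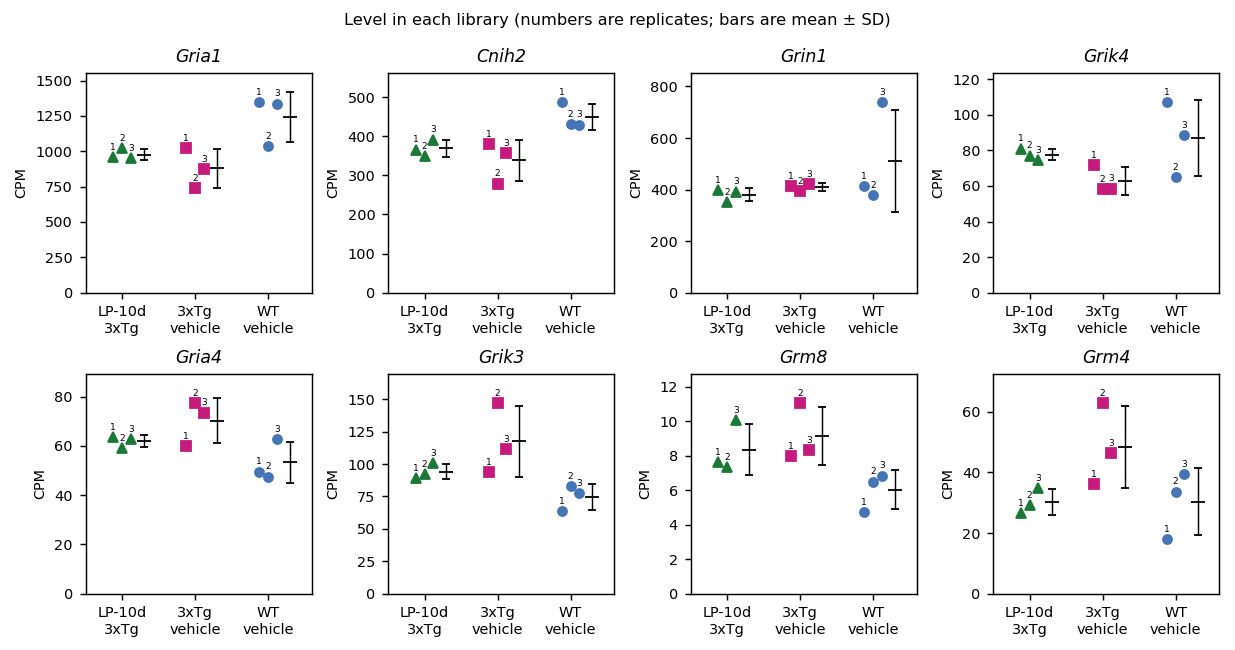
CPM of 8 members in each library, with replicate numbers beside the points and the mean ± SD of each group (n = 3) to their right. Gria1 and Cnih2 are lower in all 6 3xTg libraries than in the 3 WT vehicle libraries, Grik3 and Grm8 are higher, and the high Grin1 mean of WT vehicle comes from replicate 3 at 740 CPM.

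All 6 metabotropic receptors had a higher fitted level in 3xTg vehicle than in WT vehicle, with a median log2 fold change of 0.11, and this held under each scaling tried. None passed edgeR or DESeq2. Grm8 had 7.62, 7.35 and 10.0 CPM in LP-10d-treated 3xTg, 8.0, 11.1 and 8.33 CPM in 3xTg vehicle, and 4.74, 6.50 and 6.84 CPM in WT vehicle. The WT vehicle libraries were the 3 lowest, and the log2 fold change in 3xTg vehicle was 0.60 ± 0.20 (SE; edgeR adjusted p = 0.257). Grm4, like Grm8 a group III receptor that lowers transmitter release, had 26.7, 29.3 and 34.9 CPM in LP-10d-treated 3xTg, 36.1, 62.9 and 46.4 CPM in 3xTg vehicle, and 18.1, 33.7 and 39.4 CPM in WT vehicle. WT vehicle replicate 3 lay above 3xTg vehicle replicate 1, and the highest value was that of 3xTg vehicle replicate 2. Its log2 fold change in 3xTg vehicle was 0.67 ± 0.27 (SE; edgeR adjusted p = 0.316), 0.44 without that library and 0.41 without WT vehicle replicate 1. The presynaptic group II receptor Grm2, the astrocytic Grm3, the postsynaptic group I receptor Grm5 and the presynaptic Grm7 had log2 fold changes of 0.08 to 0.12. Grm2 spread from 63.7 to 142 CPM within 3xTg vehicle alone, and its sign turned without WT vehicle replicate 1 or without 3xTg vehicle replicate 3, over a range of -0.13 to 0.37 with 1 library left out.

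Of the 14 scaffolds (Dlg, Dlgap, Shank and Homer), 11 had a lower fitted level in 3xTg vehicle than in WT vehicle, with a median log2 fold change of -0.14, and none passed the test. Without WT vehicle replicate 3 this was 8 of 14, with a median of -0.08. All 3 Shanks, master scaffolds of the deep density, were lower, with log2 fold changes of -0.28 for Shank1, -0.20 for Shank2 and -0.14 for Shank3. Without WT vehicle replicate 3 these were -0.09, -0.09 and -0.07. Dlg4 had 881, 935 and 981 CPM in LP-10d-treated 3xTg, 961, 1016 and 952 CPM in 3xTg vehicle, and 1151, 968 and 1239 CPM in WT vehicle, with WT vehicle replicate 2 inside the 3xTg range. Its log2 fold change in 3xTg vehicle was -0.20 ± 0.10 (SE; edgeR adjusted p = 0.415), and -0.13 without WT vehicle replicate 3. Dlg1, which encodes SAP97, had 97.3, 88.5 and 106 CPM in LP-10d-treated 3xTg and 90.8, 107 and 98.6 CPM in 3xTg vehicle. In WT vehicle it had 86.8, 85.9 and 85.7 CPM, the 3 lowest values. For Dlg1 the log2 fold change in 3xTg vehicle was 0.20 ± 0.09 (SE; edgeR adjusted p = 0.355). Neuroligin log2 fold changes were -0.23 for Nlgn1, -0.01 for Nlgn2 and -0.10 for Nlgn3, and the Dlgaps, which join Dlg proteins to Shanks, ranged from -0.36 for Dlgap1 to 0.03 for Dlgap3. Without WT vehicle replicate 3, Nlgn1 was at 0.01, Nlgn2 at 0.02, Nlgn3 at -0.19 and Dlgap1 at -0.15.

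The Homers, which tie Shanks to group I metabotropic receptors, differed in sign. Homer1 had 63.1, 49.4 and 57.9 CPM in LP-10d-treated 3xTg, 61.6, 82.9 and 60.9 CPM in 3xTg vehicle, and 61.5, 50.7 and 49.7 CPM in WT vehicle. Homer3 had 45.3, 47.5 and 45.3 CPM in LP-10d-treated 3xTg, 44.6, 31.6 and 34.4 CPM in 3xTg vehicle, and 61.9, 50.2 and 41.0 CPM in WT vehicle. For both genes the most extreme 3xTg vehicle value was that of replicate 2, highest for Homer1 and lowest for Homer3, and the groups overlapped. Homer1 had a log2 fold change of 0.34 in 3xTg vehicle (0.18 without replicate 2) and Homer3 of -0.47 (-0.37 without it, and -0.31 without WT vehicle replicate 1). Gene-level counts do not separate the short, activity-induced Homer1a from the long forms. Homer3 overlaps Ddx49, which had 27.4 to 31.7 CPM in all 9 libraries, so reads of the pair may be shared.

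Over the 43 genes, 26 had a lower and 17 a higher fitted level in 3xTg vehicle than in WT vehicle, with a median log2 fold change of -0.07 against 0.00 over all genes tested. Without WT vehicle replicate 3 the median was 0.02 and 18 of 43 were lower. The balance of directions over the set therefore turned on 1 library. WT vehicle replicate 3 was the highest of the 9 libraries for 24 of 43 members (55.8%), against 26.3% of all genes tested, and WT vehicle replicate 2 was the lowest for 17 (against 11.2% of all genes). In the same libraries the 4 neuronal marker genes had their highest sum, 6015 CPM, in WT vehicle replicate 3 and their lowest, 4402 CPM, in WT vehicle replicate 2, and the part of neuronal content in these levels was not tested. 3xTg vehicle replicate 2 was highest for 9 members and lowest for 10, against 12.6% and 10.4% of all genes. Dlgap3, abundant in striatum, was among its high values, at 623 CPM against 473 to 482 CPM in LP-10d-treated 3xTg, 474 and 482 CPM in the other 3xTg vehicle libraries and 466 to 559 CPM in WT vehicle. No LP-10d-treated 3xTg library was the highest for any member, against 6.44% to 7.84% of all genes.

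**Figure D4:**
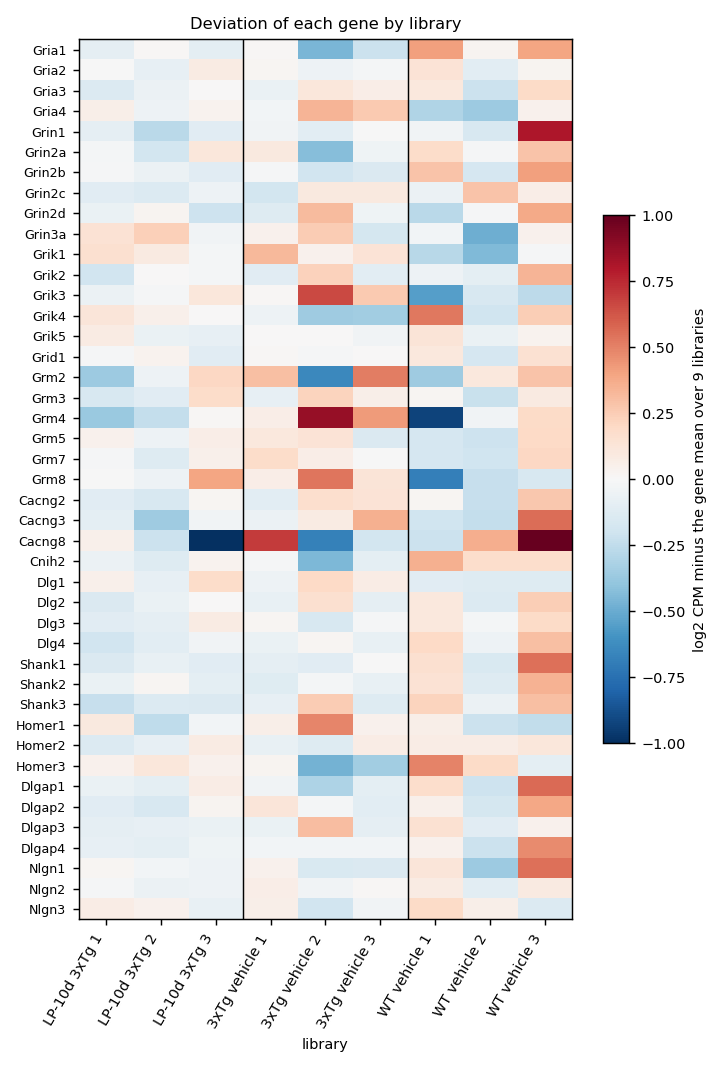
Log2 CPM of each of the 43 genes in each library, minus the mean of that gene over 9 libraries, with red above and blue below that mean. WT vehicle replicate 3 holds the highest value for 24 genes, WT vehicle replicate 2 the lowest for 17, and 3xTg vehicle replicate 2 holds both high and low extremes.

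The second comparison asked what LP-10d did in 3xTg mice. It uses the same 3xTg vehicle libraries as the first, so the values of both are not independent. No member passed edgeR, against 0% of all genes tested, and DESeq2 called 0 members, against 0.00575% of all genes. The adjusted p was 1.00 for every member with edgeR. At an unadjusted p under 0.05 edgeR counted 1 member lower, Grm4, and 0 higher, against 1.95% and 0.948% of all genes. The groups did not overlap in 5 members (11.6%), the same share as the 11.6% of all genes: Grik4 and Homer3 were higher, and Grm4, Shank3 and Dlgap4 lower.

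Deviations from the group mean correlated at 0.117 to 0.373 between same-numbered libraries of these groups. A differently numbered pair, 3xTg vehicle replicate 1 and LP-10d-treated 3xTg replicate 2, reached 0.182, so pairing by number is not established. Fits with the replicate number as a block stand beside these counts, and their smaller SEs rest on that assumed pairing. With the block in the 9-library fit, edgeR at an unadjusted p under 0.05 counted 2 members higher (Grik4 and Homer3) and 2 lower (Grik3 and Grm4), against 1.09% and 2.01% of all genes. In a block fit of the 6 libraries alone, added after seeing the data, it counted the same 2 members higher and 4 lower (Grik3, Grm4, Cacng3 and Shank3), against 3.54% and 4.69% of all genes. Either fit called 0 members at the adjusted threshold. In the 6-library fit the log2 fold change of Grm4 was -0.66 ± 0.14 and that of Grik4 0.31 ± 0.06 (SE; edgeR adjusted p = 0.401 for each), the smallest adjusted p among members.

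For Grm4, all 3 LP-10d-treated 3xTg libraries lay below all 3 3xTg vehicle libraries, and the log2 fold change was -0.68 ± 0.27 (SE), and -0.45 without 3xTg vehicle replicate 2. The Grik4 difference was 0.30 ± 0.16 and the Homer3 difference 0.32 ± 0.16 on the log2 scale (SE), with groups that did not overlap. Grik3, at -0.32 ± 0.16, and Homer1, at -0.27 ± 0.14 (SE), were lower in LP-10d-treated 3xTg with overlapping groups. Without 3xTg vehicle replicate 2 these were -0.13 and -0.11. Shank3, at 378, 402 and 401 CPM in LP-10d-treated 3xTg, lay below the 418, 527 and 405 CPM of 3xTg vehicle, by a log2 fold change of -0.19 ± 0.12 (SE), and -0.06 without replicate 2. Shank3 in WT vehicle had 516, 424 and 545 CPM. Dlgap4 had 349, 346 and 359 CPM in LP-10d-treated 3xTg and 362, 364 and 364 CPM in 3xTg vehicle, a log2 fold change of -0.05.

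For the main ion channel subunits, the intervals bound the difference between LP-10d-treated 3xTg and 3xTg vehicle. The 95% interval of the log2 fold change was -0.15 to 0.46 for Gria1, -0.16 to 0.21 for Gria2, -0.34 to 0.14 for Gria3 and -0.46 to 0.10 for Gria4. It was -0.57 to 0.36 for Grin1, -0.22 to 0.39 for Grin2a and -0.24 to 0.35 for Grin2b. All 6 metabotropic receptors had a lower fitted level in LP-10d-treated 3xTg, and 4 of 6 without 3xTg vehicle replicate 2. Over the 43 genes 30 were lower and 13 higher, with a median of -0.07 against 0.00 over all genes. Without 3xTg vehicle replicate 2 the median was -0.04 and 26 were lower.

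**Figure D5:**
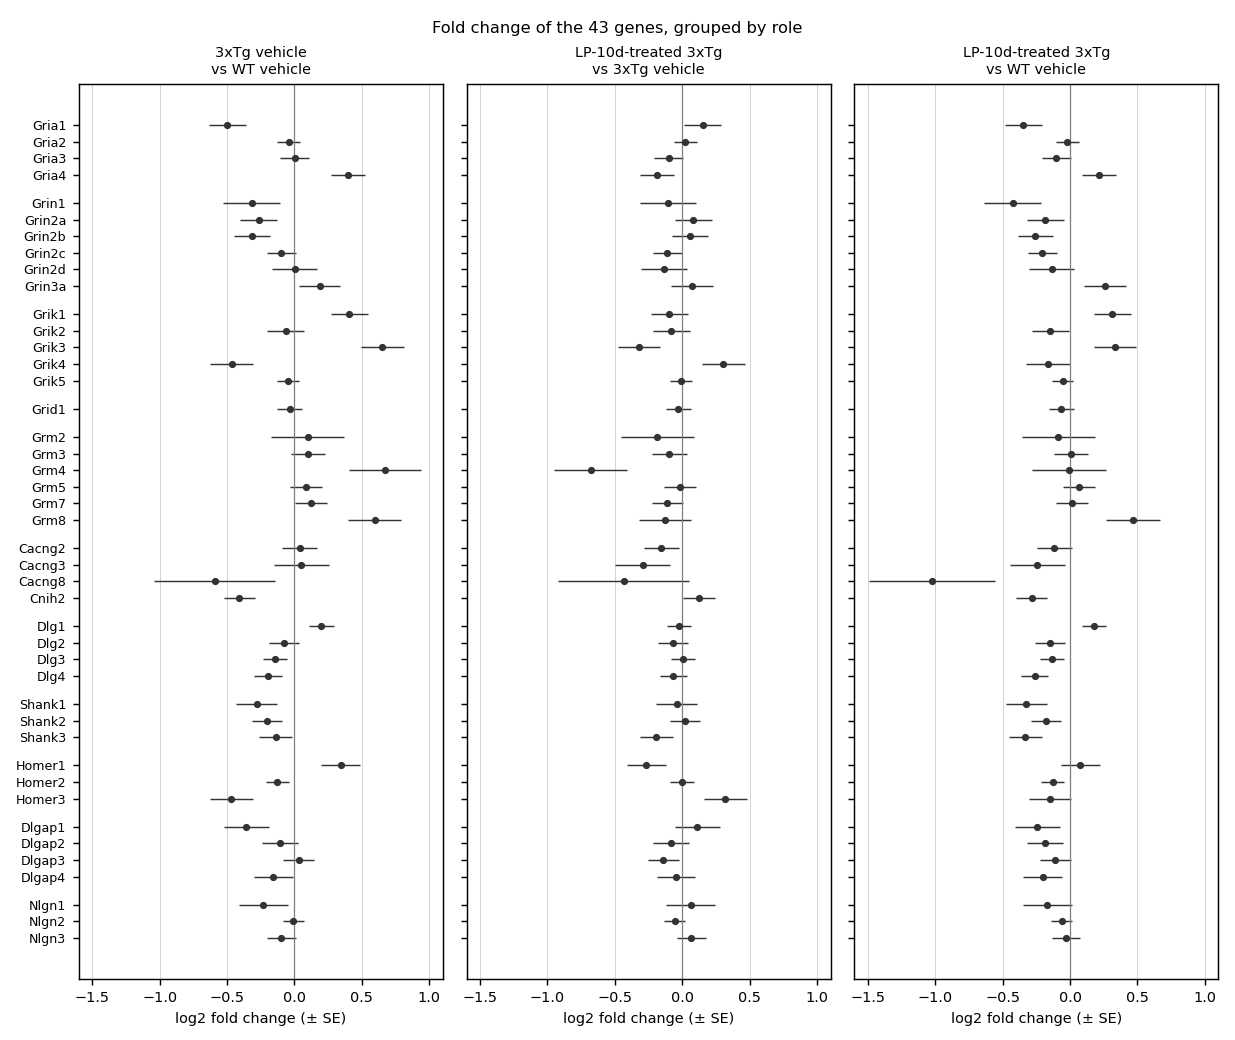
Log2 fold change ± SE of each member in the 3 comparisons, with genes grouped by role from AMPA subunits at the top to neuroligins at the bottom. In 3xTg vehicle against WT vehicle Grik3 (0.65), Grm8 (0.60) and Grm4 (0.67) lie to the right and Gria1 (-0.50) and Cnih2 (-0.41) to the left, and none of the 43 passed edgeR in any panel.

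The third comparison set LP-10d-treated 3xTg against WT vehicle. It shares libraries with both of the others. No member passed edgeR, against 0% of all genes tested, or DESeq2, against 0.265%, and the smallest adjusted p with edgeR was 0.569. At an unadjusted p under 0.05 edgeR counted 2 members higher (Grik1 and Grm8) and 4 lower (Gria1, Cnih2, Dlg4 and Shank3), against 4.08% and 4.67% of all genes. The groups did not overlap in 6 members (14.0%), against 14.4% of all genes: Grik3, Grm8 and Dlg1 were higher, and Gria1, Cnih2 and Shank3 lower.

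Gria1 and Cnih2 were below WT vehicle in the treated mice, with log2 fold changes of -0.35 ± 0.14 and -0.28 ± 0.12 (SE), beside the -0.50 and -0.41 of 3xTg vehicle given above. Shank3 was lower by -0.33 ± 0.12 and Dlg4 by -0.26 ± 0.10 on the log2 scale (SE). Without WT vehicle replicate 3 these were -0.26 and -0.18. Grm8, at 0.47 ± 0.20, Grik3, at 0.33 ± 0.16, and Grik1, at 0.31 ± 0.14 (SE), were higher than in WT vehicle. Grm4 averaged 30.3 ± 4.17 CPM in LP-10d-treated 3xTg and 30.4 ± 11 CPM in WT vehicle (SD, n = 3 each), with a 95% interval of the log2 fold change of -0.61 to 0.60. Grin1 had a log2 fold change of -0.43, and -0.06 without WT vehicle replicate 3. Over the 43 genes 33 were lower, with a median of -0.13 against 0.00 over all genes, and without WT vehicle replicate 3 the median was -0.02 and 25 were lower.

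The remaining members are given by their range. In 3xTg vehicle against WT vehicle, the 26 members outside the naming rule had log2 fold changes of -0.59 to 0.20 with edgeR adjusted p of 0.355 to 0.999. In LP-10d-treated 3xTg against 3xTg vehicle the same 26 ranged from -0.43 to 0.11, and against WT vehicle from -1.02 to 0.26. The lowest value in each was that of Cacng8. In LP-10d-treated 3xTg against WT vehicle Cacng8 was at -0.48 without WT vehicle replicate 3, in place of -1.02. Over the 43 genes, leaving out 1 library at a time turned the sign or moved the log2 fold change by over 1.5 times at least once for 36 members in 3xTg vehicle against WT vehicle, for 40 in LP-10d-treated 3xTg against 3xTg vehicle, and for 37 in LP-10d-treated 3xTg against WT vehicle. The 7 that stayed within it in the first of these were Cnih2, Dlg1, Gria1, Gria4, Grik1, Grik3 and Grm8.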

How the data were processed

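The authors deposited raw gene counts and FPKM for 9 libraries; the build named in the submitters' processing notes is mm10. The aligner is not given in the sources used here, nor is the counter or its use of strand, and 30 of 43 members overlap another gene whose reads may be mixed with theirs. RNA was taken by TRIzol and a column, per the labels' protocols. All 43 members had GENCODE M21's position and name. Counts were tested with edgeR 4.0.16 (R 4.3.3): filterByExpr (17396 genes), TMM, 1 fit of 9 libraries, quasi-likelihood test, Benjamini-Hochberg adjustment over all genes, threshold 0.05; intervals use the fit's degrees of freedom. Fits were tested on simulated data. Alternatives were other scalings, no filter, DESeq2 1.42.0, limma 3.58.1 (voom, and trend on log2(FPKM + 0.1 or 1)), a replicate block (also in the 6 3xTg libraries alone, added after seeing the data) and leaving out libraries. Members and lists were chosen with earlier results of these data known. Members named with values are the 6 with the smallest p in each comparison, Gria1 to Gria4, Grin1, Grin2a and Grin2b; Dlg1, Cacng8, Dlgap3, Dlgap4, Grin2c and Grm2 were added after their values were seen, and the rest appear by fold change or range. From each other list up to 4 genes with the smallest p could be named. Deviations of same-numbered LP-10d-treated 3xTg and 3xTg vehicle libraries correlated at 0.117 to 0.373, each over 0.1. The labels name no shared animal or batch. The main fit took no libraries as paired, and only the block fits treated same-numbered libraries as paired. The differently numbered pair of 3xTg vehicle replicate 1 and LP-10d-treated 3xTg replicate 2 correlated at 0.182, so the pairing is not established. Same-numbered libraries of WT vehicle and either 3xTg group correlated at -0.190 to 0.144, and only the block fit of all 9 libraries treated them as paired. Within groups, each pair of libraries differed by more than counting noise.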

Additional observations from a re-analysis of the deposited data

How the results depend on the processing

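Each interval rests on the spread between 3 libraries a group. No alternative called a member, except DESeq2, which called 2 in 3xTg vehicle against WT vehicle. With the replicate block 0 members were called in each comparison, and median log2 fold changes were -0.0628 (3xTg vehicle against WT vehicle), -0.0684 (LP-10d-treated 3xTg against 3xTg vehicle) and -0.126 (LP-10d-treated 3xTg against WT vehicle). In LP-10d-treated 3xTg against 3xTg vehicle, the median was -0.0697 in the 6-library block fit, which treats same-numbered libraries as paired. Beyond the counts given above the block changed no call. Leaving out 1 library at a time, the median of LP-10d-treated 3xTg against 3xTg vehicle ran from -0.0771 to -0.0363, and it was -0.0313 with both WT vehicle replicate 3 and 3xTg vehicle replicate 2 left out, a fit added after seeing the data. With 1 library left out at a time, the sign turned at least once for 17 of 43 members in 3xTg vehicle against WT vehicle. It did so for 16 in LP-10d-treated 3xTg against 3xTg vehicle and for 16 in LP-10d-treated 3xTg against WT vehicle. Among members of the naming rule, signs turned over all alternatives as follows. In 3xTg vehicle against WT vehicle Gria3 was -0.00215 with RLE scaling, -0.00598 with upper-quartile scaling, -0.00302 unfiltered and -0.00211 with DESeq2, and ran from -0.111 to 0.0773 with 1 library left out. Gria2 was 0.00276 and 0.00263 on the log2(FPKM + 0.1) and log2(FPKM + 1) scales and ran from -0.103 to 0.0154, and Grin1 ran from -0.494 to 0.041. In LP-10d-treated 3xTg against 3xTg vehicle Grin2a ran from -0.0546 to 0.202 and Gria2 from -0.0188 to 0.0624. Against WT vehicle Gria2 was 0.0285 and 0.0276 on the FPKM scales and ran from -0.08 to 0.045. The difference in the Grin2a to Grin2b ratio ran from -0.0143 to 0.0505, from -0.029 to 0.045 and from -0.0185 to 0.0585 in the 3 comparisons, in the order given for the replicate block. The cause of these turns was not tested.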

Other observations

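Genes around the receptors were looked at in 5 further lists, and edgeR called none in any comparison. In 3xTg vehicle against WT vehicle DESeq2 called 2 of 20 genes of receptor auxiliary subunits and trafficking, 2 of 20 of postsynaptic signalling and 2 of 25 of synaptic adhesion. It called 0 of 11 of glutamate handling and 0 of 3 remaining family subunits. Among the 15691 genes to which it gave an adjusted p, the share called was 2.24%. The auxiliary pair bind AMPA receptors as Cnih2 does. Gsg1l, which slows recovery from desensitization, had 60.3, 52.0 and 64.3 CPM in LP-10d-treated 3xTg, 76.8, 108 and 84.2 CPM in 3xTg vehicle, and 41.8, 57.0 and 50.8 CPM in WT vehicle. All 3 3xTg vehicle libraries lay above the other six. The log2 fold change was 0.85 ± 0.15 in 3xTg vehicle against WT vehicle (SE; edgeR adjusted p = 0.0844; DESeq2 adjusted p = 0.000158), 0.69 without 3xTg vehicle replicate 2, and -0.61 ± 0.15 in LP-10d-treated 3xTg against 3xTg vehicle (SE; edgeR adjusted p = 1.00; DESeq2 adjusted p = 0.410). The pair of comparisons share the 3xTg vehicle libraries. Shisa6, which keeps AMPA receptors at synapses, had 140, 143 and 138 CPM in LP-10d-treated 3xTg, 134, 87.6 and 102 CPM in 3xTg vehicle, and 202, 141 and 260 CPM in WT vehicle. Its log2 fold change in 3xTg vehicle against WT vehicle was -0.89 ± 0.21 (SE; edgeR adjusted p = 0.135; DESeq2 adjusted p = 0.00392), and -0.67 without WT vehicle replicate 3.

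In the signalling list 15 of 20 genes had a lower fitted level in 3xTg vehicle than in WT vehicle and 19 of 20 in LP-10d-treated 3xTg than in WT vehicle, with medians of -0.17 and -0.25 (-0.09 and -0.14 without WT vehicle replicate 3). Ppp3ca, the calcineurin catalytic subunit, had 1072, 1090 and 1229 CPM in LP-10d-treated 3xTg, 1156, 1071 and 1121 CPM in 3xTg vehicle, and 1479, 1270 and 1434 CPM in WT vehicle. The WT vehicle libraries were the 3 highest, and the log2 fold change in 3xTg vehicle was -0.32 ± 0.10 (SE; edgeR adjusted p = 0.218; DESeq2 adjusted p = 0.0321). The scaffold Tanc1 was the other DESeq2 call in that list, at -0.57 ± 0.16 (SE; DESeq2 adjusted p = 0.0469). Its groups overlapped, and it was at -0.43 without WT vehicle replicate 3. The calsyntenins Clstn3 and Clstn1, adhesion proteins of the postsynaptic membrane, were at 0.38 ± 0.10 and 0.30 ± 0.09 (SE; DESeq2 adjusted p = 0.0278 and 0.0448). Without WT vehicle replicate 3 these were 0.28 and 0.25.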
